A study of Homo sapiens with 17 samples.

Results

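The endoplasmic reticulum (ER) chaperones described here are 10 genes: HSPA5, HSP90B1, CALR, CANX, PDIA3, PDIA4, PDIA6, DNAJB9, DNAJB11 and HYOU1. They were chosen by name, as folding helpers and disulfide enzymes that the unfolded protein response is known to control. Earlier results of these data were known when the choice was made. All 10 symbols were found among the 25548 in the table of RNA levels, and all 10 were among the 12015 genes whose mean level was high enough to be tested.

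The unfolded protein response is the ER's own stress circuit. When unfolded protein builds up in the ER lumen, the chaperone BiP (HSPA5) leaves the membrane sensors IRE1, PERK and ATF6, and the transcription factors XBP1, ATF4 and cleaved ATF6 raise the genes for chaperones, disulfide isomerases and degradation factors. A T cell depends on this machinery to fold its antigen receptor and other surface proteins. Some ER chaperone promoters carry the ER stress response element (ERSE), to which ATF6 and XBP1 bind together with the factor NF-Y.

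RNA was sequenced from Jurkat cells, a long-established leukaemic T cell line of human origin, after culture with ILT3.Fc. This is a soluble fusion protein made of the outer domain of ILT3, an inhibitory receptor of antigen-presenting cells, and the Fc end of an antibody. The 9 groups were 0, 12.5 or 25 µg/ml ILT3.Fc for 6, 12 or 24 h, with 2 libraries in 8 of the groups and 1 library in the group at 0 µg/ml for 12 h, which makes 17 libraries in all. The study sought the regulator that stands above the response to ILT3.Fc. All groups were the same line in RPMI-1640 medium with fetal bovine serum, and the 0 µg/ml groups are called untreated here. The labels name no control Fc protein for them. Whether each duplicate had its own culture is also not stated, and the p-values rest on the spread between these libraries alone, and that spread may be technical.

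The identity of the cells was checked first. All 12 T cell line markers, CD3D, CD3E and LCK among them, had a mean of at least 1 FPKM (sequenced fragments divided by gene length and by the library's mapped fragments), and their sum ranged from 1882 to 2128 FPKM. The B cell markers MS4A1 and PAX5 were at or near 0, while CD79A was between 33.4 and 48.1 FPKM, and no myeloid or NK cell marker reached a mean of 1. LILRB4, the gene for ILT3 itself, was listed at 0 in every library. Sums of FPKM ranged from 504363 to 557389 per library, and the depth recovered from low genes went down to 0.67 of that of the deepest library. The absolute depth is unknown. 2 libraries stood apart: replicate 1 of 12.5 µg/ml at 6 h, and replicate 2 of 25 µg/ml at 24 h. In the former, deviations from the other libraries followed gene length (Spearman −0.60, taken over genes, and genes are no independent replicates), and in the latter they followed GC content (0.56). The lowest value for GC content was −0.37, in replicate 2 of 0 µg/ml at 24 h. Lane 4 of the sequencer held the 24 h libraries together with the first replicates at 6 h, and lane 5 held those of 12 h with the second replicates at 6 h. The 12 h and 24 h libraries therefore cannot be told apart from their lanes, while 6 h libraries ran in both.

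The promoters are given first, because the genes are known as targets of the same factors. For that reason the shares below describe the windows and are no test. The start-site windows of RefSeq (build GRCh38.p14, 250 bases before to 50 after each start) held 9 of the 10 genes, all but PDIA3. The full ERSE, spelled CCAAT, any 9 bases, CCACG, was searched on both strands. It lay in a window of 5 of these 9 genes (HSPA5, HSP90B1, CALR, CANX and PDIA6), against 25 of 27305 genes with a window, or 0.0916%. HSP90B1 had 2 copies. The related ERSE-II, ATTGG, any base, CCACG, lay in 1 of the 9, HYOU1, with 2 copies, against 0.0696% of genes. The 8-base ATF6 and XBP1 element TGACGTGG also lay in HYOU1 alone, where it overlaps the upstream ERSE-II, against 0.927% of genes. PDIA4, DNAJB9 and DNAJB11 had none of the 3, which says only that these letters are not in these windows. The short parts of the ERSE were common everywhere: CCAAT lay in 9 of the 9 and in 39.7% of all genes, and CCACG in 8 of the 9 and in 42.1%. The ERSE and ERSE-II copies are shown with 10 bases on each side, read in the direction of the element, with the element in capitals. They let the fixed ends and the free middle be compared between genes.
HSPA5, chr9:125241381-125241419, minus strand: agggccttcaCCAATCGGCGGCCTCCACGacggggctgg
HSP90B1, chr12:103930206-103930244, plus strand: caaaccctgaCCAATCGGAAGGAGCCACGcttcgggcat
HSP90B1, chr12:103930311-103930349, minus strand: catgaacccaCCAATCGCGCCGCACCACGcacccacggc
CALR, chr19:12938374-12938412, minus strand: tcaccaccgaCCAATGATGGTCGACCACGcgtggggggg
CANX, chr5:179698768-179698806, plus strand: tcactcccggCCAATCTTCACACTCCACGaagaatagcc
PDIA6, chr2:10812843-10812881, minus strand: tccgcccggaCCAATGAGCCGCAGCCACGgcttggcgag
HYOU1, chr11:119057370-119057400, plus strand: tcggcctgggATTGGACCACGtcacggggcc
HYOU1, chr11:119057264-119057294, plus strand: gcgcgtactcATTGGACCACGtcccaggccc

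The 250 bases before the start of HSPA5, HSP90B1 and PDIA4 follow in the direction of transcription, because these 3 genes carry the main differences below. Capitals mark a full ERSE. The window of HSPA5 holds 1, from 66 to 48 bases before the start, and the window of HSP90B1 holds 2, from 194 to 176 and, on the opposite strand, from 89 to 71 bases before the start. The window of PDIA4 holds none.
HSPA5, chr9:125241344-125241593, minus strand: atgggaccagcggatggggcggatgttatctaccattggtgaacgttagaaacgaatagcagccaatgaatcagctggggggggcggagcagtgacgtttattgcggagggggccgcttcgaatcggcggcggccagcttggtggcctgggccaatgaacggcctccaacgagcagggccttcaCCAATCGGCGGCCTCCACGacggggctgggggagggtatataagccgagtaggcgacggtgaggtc
HSP90B1, chr12:103930160-103930409, plus strand: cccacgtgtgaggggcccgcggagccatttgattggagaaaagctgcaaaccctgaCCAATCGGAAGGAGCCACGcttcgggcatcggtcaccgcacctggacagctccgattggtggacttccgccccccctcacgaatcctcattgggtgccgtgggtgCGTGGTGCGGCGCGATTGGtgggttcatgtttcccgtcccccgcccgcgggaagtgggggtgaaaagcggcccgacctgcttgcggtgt
PDIA4, chr7:149028491-149028740, minus strand: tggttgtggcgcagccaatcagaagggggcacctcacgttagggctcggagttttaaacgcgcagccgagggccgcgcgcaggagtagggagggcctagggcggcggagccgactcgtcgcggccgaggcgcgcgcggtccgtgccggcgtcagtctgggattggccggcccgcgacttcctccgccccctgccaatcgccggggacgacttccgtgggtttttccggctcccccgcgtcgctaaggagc

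**Figure D1:**
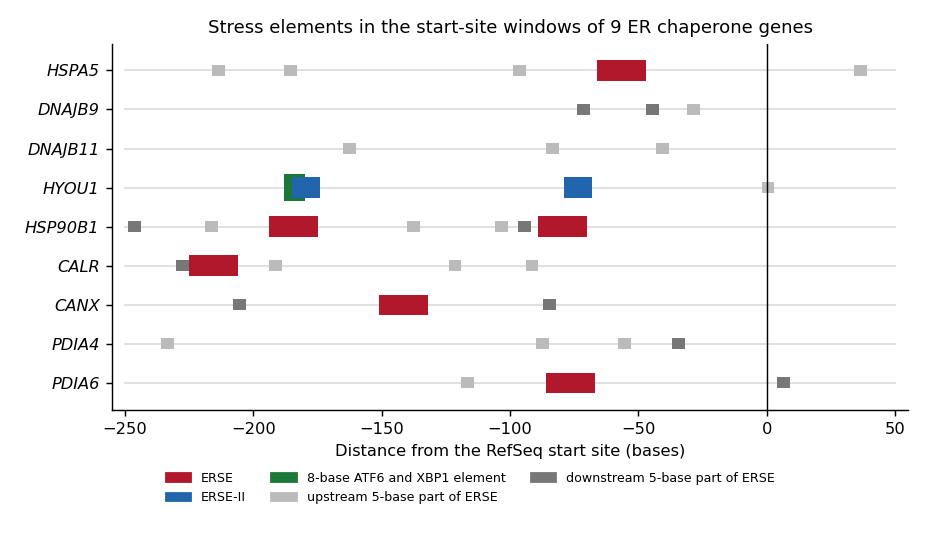
Positions of ERSE, ERSE-II, the 8-base element and the short ERSE parts in 1 RefSeq window for each of 9 genes, with distance from the start site in bases on the x axis; for a gene with several windows, the window with most full elements is drawn. The ERSE copies of HSPA5 and PDIA6 and the nearer copy of HSP90B1 lie within 89 bases before the start, and those of CALR and CANX lie farther out.

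In these untreated and treated Jurkat cells the ER chaperones were among the abundant mRNAs. CALR, which encodes calreticulin, the soluble lectin chaperone that also buffers calcium, was highest, with 775.9 ± 45.4 FPKM (SD, n = 17). It was followed by HSP90B1, the ER member of the HSP90 family known as GRP94, with 403.6 ± 37.9. HSPA5, the HSP70 chaperone BiP, had 215.3 ± 31.4, and CANX, the membrane-bound lectin calnexin, 193.2 ± 9.22 FPKM. The disulfide isomerases PDIA6 and PDIA4 had 122.2 ± 4.74 and 96.9 ± 5.05 FPKM. HYOU1, the nucleotide exchange factor for BiP, had 79.6 ± 2.53, PDIA3, the isomerase that works with calreticulin and calnexin, 73.8 ± 3.20, and DNAJB11, a J-domain partner of BiP, 70.3 ± 3.35 FPKM. DNAJB9, another J-domain partner, also known as ERdj4, was far lower, with 5.74 ± 0.392 FPKM, at the 25.1 percentile of tested genes, while the other 9 lay at the 88.0 percentile or above. FPKM is per length, so these levels can be set side by side.

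The order of levels was CALR, HSP90B1, HSPA5, CANX, PDIA6, PDIA4, HYOU1, PDIA3, DNAJB11, DNAJB9. Neighbours did not overlap over the 17 libraries except in 3 places. HSPA5 was above CANX in 11 of 17 libraries, HYOU1 above PDIA3 in 16, and PDIA3 above DNAJB11 in 16. The level of PDIA3 is uncertain, since its near-identical pseudogene PDIA3P was listed at 55.9 to 65.5 FPKM in the same table and the authors' counting could have divided reads between the pair. HSP90B3P, a pseudogene related to HSP90B1, was listed at 0.666 to 1.30 FPKM.

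**Figure D2:**
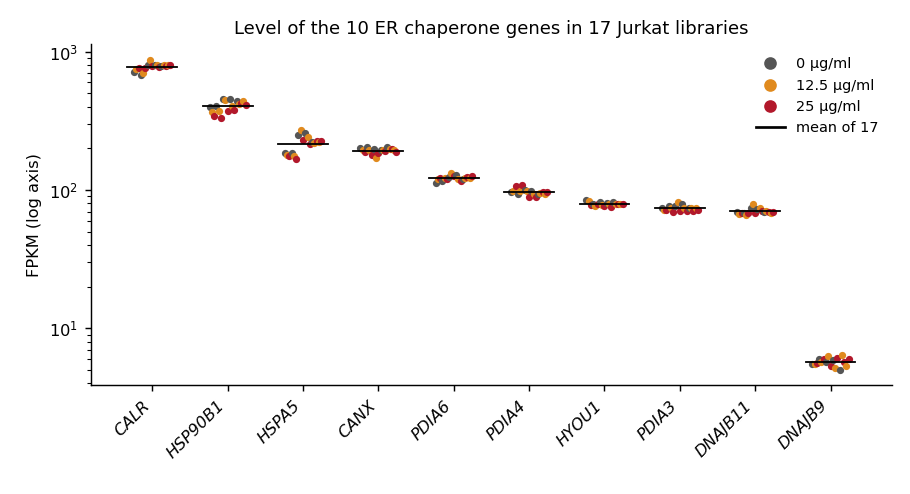
FPKM on a log axis of each of the 10 genes in 17 libraries, coloured by dose, with the mean as a line. CALR lies highest at a mean of 775.9 and DNAJB9 lowest at 5.74, and the widest relative spread is that of HSPA5.

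How much a gene varied over the 9 groups differed strongly within the set. The coefficient of variation over all 17 libraries was 14.6% for HSPA5 and 9.39% for HSP90B1, against a median of 5.47% over 2132 genes with a mean of at least 50 FPKM. The other 7 abundant members lay between 3.17% (HYOU1) and 5.85% (CALR). The highest HSPA5 value was 1.61 times the lowest, and the highest HYOU1 value 1.12 times the lowest.

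The widest differences lay between times. HSPA5 RNA was lowest at 24 h at every dose, and its 12 h values lay between those of 6 and 24 h at 0 and 12.5 µg/ml. Untreated libraries had 252.1 and 258.4 FPKM at 6 h, 222.5 at 12 h, and 184.6 and 185.5 at 24 h. At 12.5 µg/ml the values were 272.2 and 242.6, then 217.5 and 221.6, then 180.5 and 177.2 FPKM. At 25 µg/ml they were 228.9 and 217.1, then 225.4 and 228.2, then 177.7 and 168.9 FPKM. All 6 values at 24 h lay below all values at 6 and 12 h, and at 25 µg/ml the 6 h and 12 h values overlapped.

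Comparisons used limma, an empirical Bayes linear model, on log2(FPKM + 1) with Benjamini-Hochberg adjustment over all 12015 tested genes, and a gene is called at an adjusted p under 0.05. Differences on this scale understate the change of low genes such as DNAJB9. Between 24 and 6 h, over all doses, 25.2% of tested genes were called, and 5 of the 10 ER chaperones were, with 4 lower and 1 higher at 24 h. The median difference of the 10 was −0.05, against −0.00088 over all genes tested. In RNA from whole cultures, less RNA per cell and fewer cells that hold the RNA cannot be told apart.

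HSPA5 fell by 0.45 on the log2 scale (SE 0.030, adjusted p = 1.77e-05), to 0.733 times its 6 h level, and ranked 7 of 12015 genes by p. It was called under all 32 alternative settings, with differences from −0.48 to −0.36. Within lane 4, where 3 of the 6 h libraries had 228.9 to 272.2 FPKM and the 24 h libraries 168.9 to 185.5, the difference was −0.48 (adjusted p = 0.00267). Comparisons of times at a single dose kept the spread of all 17 libraries, unlike the fit within lane 4. In untreated libraries alone the HSPA5 difference was −0.46 (adjusted p = 0.00432), and at 25 µg/ml alone −0.36 (adjusted p = 0.00155). The difference between these last values, 0.10 (SE 0.073), did not pass the test (adjusted p = 0.458). From 6 to 12 h HSPA5 differed by −0.13 (SE 0.032, adjusted p = 0.0526). In that comparison 3.03% of all genes were called and 0 of the 10 ER chaperones were. An unadjusted p under 0.05 was held by 2 of the 10 and by 2454 of the 12015 genes. Within lane 5 the 12 h difference of HSPA5 was −0.10 (adjusted p = 0.153), and its adjusted p over the alternatives ran from 0.00176 to 0.242.

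HSP90B1, CALR and DNAJB11 were also lower at 24 h. HSP90B1 fell by 0.18 (SE 0.027, adjusted p = 0.000963). Its 6 h libraries had a lowest value of 375.6, a median of 426.3 and a highest of 453.9 FPKM, against 331.0, 368.0 and 402.0 at 24 h, so that the times overlapped over all doses while they did not overlap within a dose. CALR fell by 0.14 (SE 0.029, adjusted p = 0.00538), from a 6 h range of 772.3 to 872.4 FPKM to a 24 h range of 677.4 to 768.5, with no overlap. DNAJB11 fell by 0.11 (SE 0.022, adjusted p = 0.00445). Its ranges, 68.6 to 79.8 FPKM at 6 h and 66.4 to 69.1 at 24 h, overlapped. Within lane 4 the falls were −0.20, −0.17 and −0.12, each with an adjusted p of 0.0367 or less. HSP90B1 was not called in untreated libraries alone (−0.18, adjusted p = 0.0680) and was at 25 µg/ml alone (−0.16, adjusted p = 0.0376). CALR and DNAJB11 were not called in untreated libraries alone (adjusted p = 0.0652 and 0.172) or at 25 µg/ml alone (adjusted p = 0.773 and 0.592), where the CALR difference was −0.02 against −0.20 in untreated libraries. The test of that CALR gap between doses gave 0.18 (SE 0.072, adjusted p = 0.187).

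PDIA4, an isomerase with extra thioredoxin domains, was the member called higher at 24 h, by 0.08 (SE 0.020, adjusted p = 0.0106). This difference is a mean over the doses. In untreated libraries alone it was −0.06 (adjusted p = 0.419), and at 25 µg/ml alone 0.27 (adjusted p = 0.000862). With lane as a covariate it was 0.07 (adjusted p = 0.0543), and within lane 4 it was 0.07 (adjusted p = 0.112). The remaining 5 members were not called between 24 and 6 h. Their differences were −0.07 for PDIA6, −0.04 for PDIA3, −0.01 for DNAJB9, 0.03 for CANX and 0.03 for HYOU1. Leaving out replicate 2 of 12.5 µg/ml at 6 h raised the count to 8, with CANX, PDIA3 and PDIA6 added, while the share of all genes called rose to 35.4%. That fit keeps only replicate 1 in the group, the library that stood apart by gene length. PDIA6 was also called lower with lane as a covariate (−0.10, adjusted p = 0.0446), within lane 4 (−0.10, adjusted p = 0.0378) and with quantile normalization (−0.06, adjusted p = 0.0330).

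**Figure D3:**
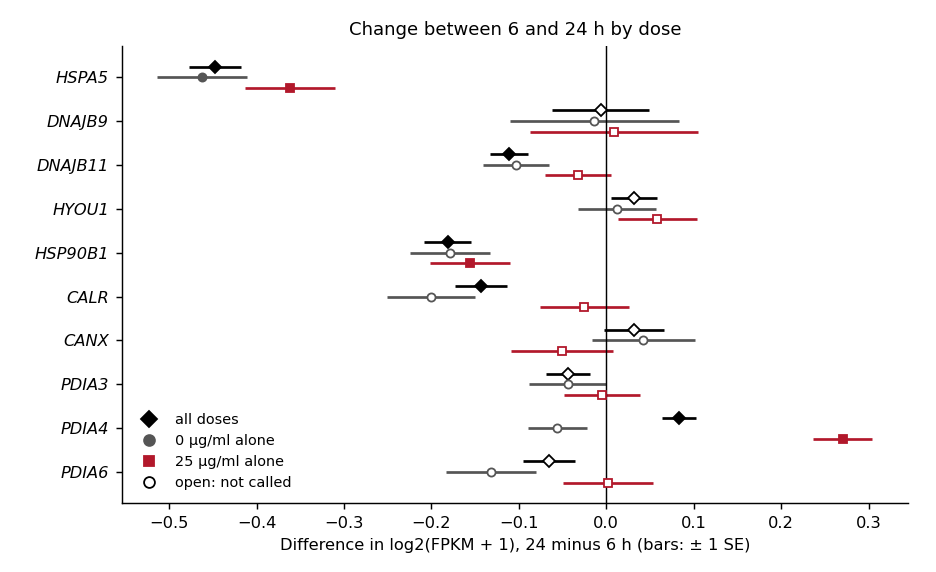
Difference in log2(FPKM + 1) between 24 and 6 h for each gene, over all doses and at 0 and 25 µg/ml alone, with bars of 1 SE and filled symbols for called values. HSPA5 lies farthest to the left in all 3 fits, and PDIA4 lies at −0.06 without ILT3.Fc and at 0.27 with 25 µg/ml.

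Fewer members were called between doses. Over all times, 25 against 0 µg/ml, 1 of the 10 genes was called, HSP90B1, which was lower, in a comparison in which 9.47% of all genes tested were called. The median difference of the 10 was −0.05, against 0.02 for all genes, with 6 below 0 and 4 above. HSP90B1 fell by 0.19 (SE 0.029, adjusted p = 0.00302), to 0.876 times the untreated level. No member was called higher. HSPA5 differed by −0.09 (SE 0.032, adjusted p = 0.115), CANX by −0.10 (adjusted p = 0.113), HYOU1 by −0.07 (adjusted p = 0.160) and PDIA3 by −0.10 (SE 0.027, adjusted p = 0.0501). CALR (0.04), PDIA6 (0.03), DNAJB9 (0.06), PDIA4 (0.02) and DNAJB11 (−0.03) had adjusted p-values of 0.518 or more. Without either 6 h library at 12.5 µg/ml, PDIA3, HSPA5 and CANX were also called lower (adjusted p from 0.00632 to 0.0207), while 16.9% of all genes were called. With the GC content and length correction these 3 and HYOU1 (−0.10, adjusted p = 0.0122) were called lower as well, beside 17.4% of all genes. Median centring added PDIA3 and CANX, beside 9.64%. Without the untreated 12 h library the comparison covers 6 and 24 h alone. The count was then 3, with HSPA5 (−0.14, adjusted p = 0.0365) and PDIA3 (−0.12, adjusted p = 0.0449) added, beside 7.87% of all genes.

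The HSP90B1 difference lay below 0 at each time and passed the test at 24 h. At 6 h the untreated libraries had 452.1 and 453.9 FPKM, those with 12.5 µg/ml 445.7 and 407.0, and those with 25 µg/ml 375.6 and 376.7. At 12 h the values were 438.7 untreated, 418.4 and 439.7 at 12.5 µg/ml, and 426.7 and 415.1 at 25 µg/ml. At 24 h they were 398.2 and 402.0 untreated, 365.2 and 370.9 at 12.5 µg/ml, and 344.3 and 331.0 at 25 µg/ml. The 3 doses stood in order without overlap at 6 and at 24 h, and at 12 h the library without ILT3.Fc lay within the range of the 12.5 µg/ml libraries. The differences between 25 and 0 µg/ml were −0.27 (SE 0.046, adjusted p = 0.0511) at 6 h, −0.06 (SE 0.056, adjusted p = 0.885) at 12 h and −0.24 (SE 0.046, adjusted p = 0.00670) at 24 h. The 24 h effect minus the 6 h effect was 0.02 (SE 0.065, adjusted p = 0.876). HSP90B1 has a GC content of 41.2%, against a median of 48.1% in tested genes, and one 24 h library with 25 µg/ml stood apart by GC content. With each library corrected for GC content and length, the difference over all times was −0.20 (adjusted p = 0.000442), and without both libraries that stood apart it was −0.18 (adjusted p = 0.00109). The call was lost in lane 5 taken alone (−0.16), which covers 6 and 12 h. It was lost too in lane 4 taken alone (−0.26), which covers 6 and 24 h. Leaving out the 24 h libraries also lost it (−0.16, adjusted p = 0.154). The call was kept in 29 of 32 alternatives.

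**Figure D4:**
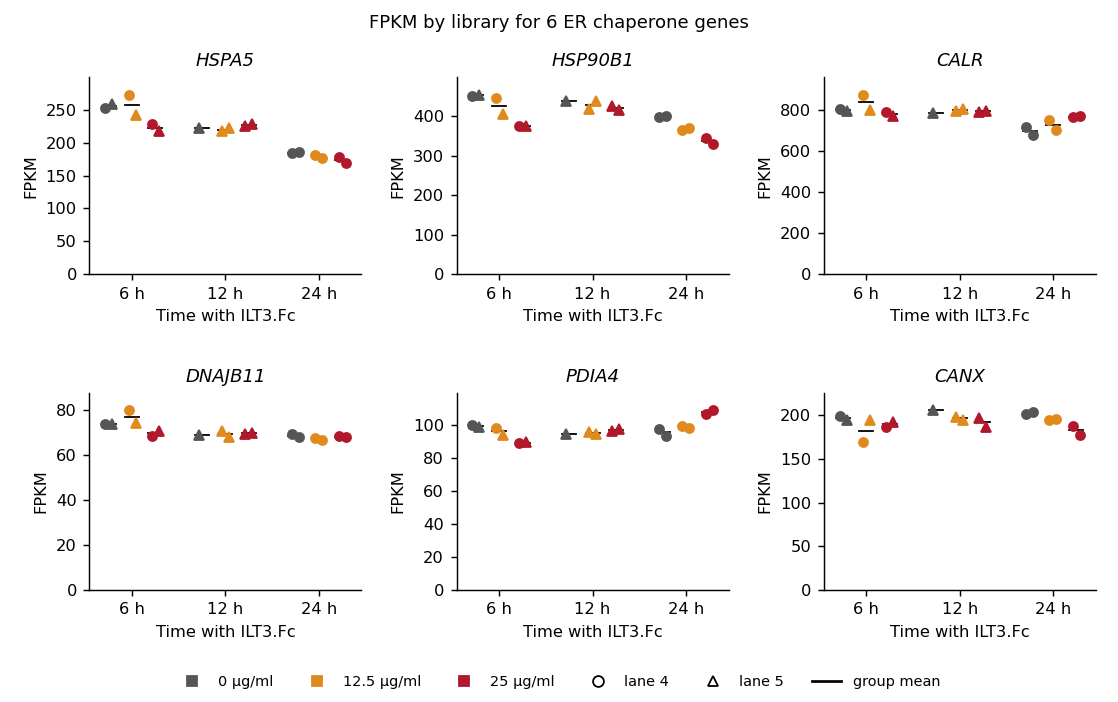
FPKM of 6 genes in every library by time, coloured by dose, with circles for lane 4, triangles for lane 5 and lines for group means; all axes start at 0. HSPA5 falls from 6 to 24 h at each dose, HSP90B1 is lowest at 25 µg/ml at 6 and 24 h, and PDIA4 at 25 µg/ml is lowest at 6 h and highest at 24 h.

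No member was called in the comparisons with the lower dose. Between 12.5 and 0 µg/ml over all times 0 of the 10 genes and 0.283% of all genes were called by limma. An unadjusted p under 0.05 was held by 1 of the 10, HSP90B1 (−0.08, SE 0.029, adjusted p = 0.317), and by 1315 of the 12015 genes. Between 25 and 12.5 µg/ml 0 of the 10 and 0.283% of all genes were called, and HSP90B1 differed by −0.11 (SE 0.027, adjusted p = 0.153). Here 3 of the 10 and 1427 of the 12015 genes had an unadjusted p under 0.05. These comparisons share libraries with the one between 25 and 0 µg/ml. Leaving out replicate 2 of 12.5 µg/ml at 6 h gave 1 call against 0 µg/ml, CANX (−0.11, adjusted p = 0.0232), where 7.45% of all genes were then called. It gave 3 calls between the doses, HSPA5 (−0.10), HSP90B1 (−0.13) and PDIA3 (−0.11), where the share of all genes was 12.3%. That fit keeps only replicate 1 in the group, the library that stood apart by gene length. Its CANX value, 169.2 FPKM, was the lowest of all 17 libraries, against 195.3 FPKM in replicate 2. With the GC content and length correction HSP90B1 was called between the doses (−0.11, adjusted p = 0.0358), beside 1.44% of all genes.

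At 6 h all 10 ER chaperones lay below the untreated level with 25 µg/ml, with a median of −0.09 against −0.0044 over all genes. None was called by limma, where 0.225% of all genes were. An unadjusted limma p under 0.05 was held by 4 of the 10 and by 1239 of the 12015 genes. HSP90B1 came nearest and was called with the GC content and length correction (−0.28, adjusted p = 0.0134). It was followed by PDIA4 (−0.15, SE 0.034, adjusted p = 0.135), HSPA5 (−0.19, SE 0.051, adjusted p = 0.212) and PDIA3 (−0.14, SE 0.044, adjusted p = 0.305). Both libraries with 25 µg/ml lay below both untreated libraries in these 4 genes, and also in CALR, CANX, DNAJB11 and HYOU1. The share of all genes separated in this way was not counted, so this separation describes the values and is no result about the members. With a GC content and length correction, 9 of the 10 were below 0, with leaving out each library in turn 9 or 10, and with median centring or quantile normalization 10. The 6 h libraries at 12.5 µg/ml, of which replicate 1 stood apart, enter the shared estimate of the spread. Without either of them, the count of called members at 6 h was 3, HSPA5, HSP90B1 and PDIA4, with adjusted p-values of 0.0384 or less, and the count of all called genes rose from 27 to 93 (0.774%).

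At 12 h 0 of the 10 were called, as were 0.0499% of all genes, and 0 of the 10 had an unadjusted p under 0.05. This comparison rests on a single untreated library, which was assumed to vary like the other groups. The members' median was 0.01, equal to that of all genes at this precision. The largest difference was that of DNAJB9 (0.20, SE 0.118, adjusted p = 0.738), from 5.02 FPKM untreated to 5.76 and 6.03 FPKM.

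At 24 h 2 of the 10 were called, where 16.5% of all genes were: HSP90B1 lower, as given above, and PDIA4 higher. The members' median was −0.03, against 0.04 for all genes. CALR (0.14, SE 0.051, adjusted p = 0.0864) and PDIA6 (0.09, adjusted p = 0.259) lay above 0, and CANX (−0.15, SE 0.059, adjusted p = 0.107), PDIA3 (−0.10, adjusted p = 0.154) and HSPA5 (−0.09, adjusted p = 0.235) below. DNAJB9 was at 0.00012, DNAJB11 at −0.01 and HYOU1 at −0.05. With the GC content and length correction HYOU1 was at −0.15 and called (adjusted p = 0.0155), as was CANX (−0.14, adjusted p = 0.0453), beside 18.9% of all genes, and quantile normalization added PDIA3 (−0.12, adjusted p = 0.0237). Both calls were lost without replicate 2 of 0 µg/ml at 24 h (HSP90B1 adjusted p = 0.0567, PDIA4 0.0827) and without replicate 2 of 25 µg/ml at 24 h (0.0602 and 0.0581), where 4.02% and 5.01% of all genes were called. PDIA4 was not called within lane 4 either (0.17, adjusted p = 0.0541). Without either duplicate of 12.5 µg/ml at 6 h the count was 5, with CALR higher and CANX and PDIA3 lower added, and 25.6% (without replicate 1) or 25.5% (without replicate 2) of all genes were called.

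PDIA4 was the member for which the test of a different response to 25 µg/ml at 24 and 6 h passed. Untreated libraries had 99.5 and 98.5 FPKM at 6 h, 94.3 at 12 h, and 97.4 and 93.0 at 24 h. At 12.5 µg/ml the values were 97.9 and 93.9, then 95.3 and 94.1, then 98.9 and 97.9 FPKM. At 25 µg/ml they were 88.5 and 89.3, then 96.3 and 97.4, then 106.4 and 108.5 FPKM. Libraries with 25 µg/ml thus lay below both untreated libraries at 6 h and above all untreated ones at 24 h. The difference between 25 and 0 µg/ml was −0.15 (SE 0.034) at 6 h, 0.04 (SE 0.041, adjusted p = 0.906) at 12 h and 0.17 (SE 0.034, adjusted p = 0.00787) at 24 h. The 24 h effect minus the 6 h effect was 0.33 (SE 0.048, adjusted p = 0.0130), a comparison in which 3.3% of all genes were called and 1 of the 10 members was. PDIA4 has a GC content of 53.0%, above the median, and GC content set replicate 2 of 25 µg/ml at 24 h apart from the others. The Spearman value for GC content also differed between groups. At 6 h it was −0.23 and −0.28 with 25 µg/ml and 0.12 and 0.07 untreated. At 24 h it was 0.13 and 0.56 with 25 µg/ml and 0.03 and −0.37 untreated. Leaving out both libraries that stood apart does not remove this difference. With the GC content and length correction the 24 h effect was 0.10 (adjusted p = 0.0290) and the difference between times 0.23 (adjusted p = 0.0136). Without both libraries that stood apart these were 0.16 and 0.31 (adjusted p = 0.0186 and 0.0136). The call on the difference between times was lost within lane 4 (0.34, adjusted p = 0.303), with the 12 h libraries left out (0.33, adjusted p = 0.0594) and without any of 5 single libraries, which were both untreated ones at 6 h and replicate 2 of untreated at 24 h, of 25 µg/ml at 6 h and of 25 µg/ml at 24 h (0.29 to 0.33, adjusted p from 0.0507 to 0.0666).

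**Figure D5:**
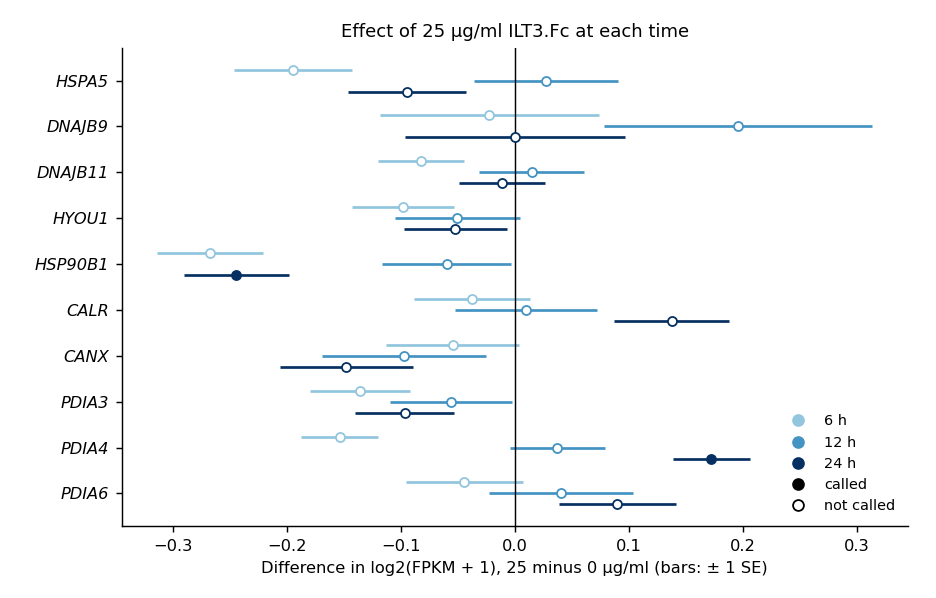
Difference in log2(FPKM + 1) between 25 and 0 µg/ml for each gene at 6, 12 and 24 h, with bars of 1 SE and filled symbols for called values. All 6 h points lie below 0, HSP90B1 and PDIA4 at 24 h are the called values, and PDIA4 moves from −0.15 at 6 h to 0.17 at 24 h.

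The 10 genes did not vary as a single block over the 17 libraries. Correlations of log2(FPKM + 1) are given as a description, since these libraries share times, lanes and depth. HSPA5 and HSP90B1 had a Pearson r of 0.81, as did HSPA5 and DNAJB11. The correlation with the mean of the other 9 members was 0.75 for DNAJB11, 0.72 for HSP90B1, 0.70 for HSPA5, 0.65 for PDIA3, 0.55 for CALR and 0.48 for PDIA6, and it was 0.08 for DNAJB9, 0.07 for HYOU1, −0.12 for PDIA4 and −0.36 for CANX. CANX and PDIA6 had the most negative pair value, −0.65. These values mix time and dose with the spread inside groups. Over deviations from the group mean in the 16 libraries with a duplicate, where both libraries of a duplicate give mirrored values, some pairs differed widely from this. PDIA4 and CALR had −0.01 over 17 libraries and 0.78 within groups, PDIA4 and DNAJB11 −0.05 and 0.73, and HSPA5 and HSP90B1 0.81 and 0.78. CALR, DNAJB11, HSPA5 and HSP90B1 spread most within the 12.5 µg/ml 6 h pair (CALR SD 49.8 FPKM). That pair holds the library that stood apart by gene length. PDIA4 spread most within the untreated 24 h pair (SD 3.12 FPKM). How far single pairs carry the within-group values was not tested. Outside the set, the 5 genes with the highest r against the mean standardized level of the members were MANF (0.85), an ER-resident secreted factor, TH1L (0.85), C19orf39 (0.84), NOL7 (0.84) and TRPV2 (0.83), each over 17 libraries.

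The wider ER machinery was counted in 7 lists of 112 genes, of which 109 were tested. With 25 against 0 µg/ml over all times, 4 were called, higher in each case and from the list of ER-associated degradation, which removes misfolded proteins from the ER (4 of 23 tested, median 0.04). They included NGLY1, the cytosolic glycanase (0.18, SE 0.029, adjusted p = 0.00352), UBE2G2, a ubiquitin-conjugating enzyme (0.15, SE 0.025, adjusted p = 0.00590), and DERL1, a channel component (0.12, SE 0.026, adjusted p = 0.0184). The counts moved when single libraries were left out, as did those over all genes. Median centring gave 3 higher and 2 lower, or 4.59% against 9.64% of all genes. Without these changes the share of the lists, 3.67%, stood beside 9.47% of all genes. The median over the 109 was 0.02, against 0.02 for all genes. The degradation genes SEL1L and HERPUD1 were at 0.02 each.

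None of the 15 sensors and transcription factors of the unfolded protein response was called over all times, with a median of 0.04. EIF2AK3, which encodes the sensor PERK, was at 0.12 (SE 0.034, adjusted p = 0.0523), and CREB3, an ER-anchored transcription factor, at 0.12 (adjusted p = 0.106). XBP1 was at 0.01, ATF4 at 0.03 and DDIT3, which encodes CHOP, at 0.12 (SE 0.081), with adjusted p-values of 0.380 or more. FPKM of a whole gene does not show splicing of XBP1 or cleavage of ATF6. Among other co-chaperones (0 of 12 called, median −0.01), SDF2L1 was at −0.14, SEC63 at −0.08 and DNAJC3 at −0.05. Among other disulfide enzymes (0 of 14, median 0.03), ERP29 was at −0.16 (adjusted p = 0.0550), TMX4 at 0.15 and P4HB at 0.04. In the glycan and lectin cycle (0 of 9) GANAB was at −0.06 and PRKCSH at 0.07. In the translocon list (0 of 24) SPCS1 was at −0.08 and SRPRB at 0.09, and in ER calcium handling (0 of 12) ATP2A2 was at −0.09 and ATP2A3 at −0.07.

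At 24 h 13 of the 109 genes were called between 25 and 0 µg/ml, 12 higher and 1 lower, or 11.9% against 16.5% of all genes, with a median of 0.05 against 0.04. The 6 from ER-associated degradation included NGLY1 (0.25), OS9 (0.24), FAF2 (0.18), SYVN1 (0.16) and DERL1 (0.14). P4HB, the archetypal disulfide isomerase, rose by 0.20 (SE 0.042, adjusted p = 0.00914), EIF2AK3 by 0.22 and CREB3 by 0.31. SEC63, a J-domain protein of the translocon, fell by 0.16. These counts moved with the processing. With the GC content and length correction they were 11 higher and 7 lower, or 16.5% against 18.9% of all genes. They also moved when libraries were left out, as did the counts over all genes. Over all times they were 6 higher and 9 lower with the correction, or 13.8% against 17.4% of all genes.

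Between 24 and 6 h, 18 of the 109 were called higher and 11 lower, or 26.6% against 25.2% of all genes. Of the 15 sensors and transcription factors, 2 were lower at 24 h and 2 higher. The lower ones were PPP1R15A, which encodes the phosphatase subunit GADD34 (−0.30, SE 0.039, adjusted p = 0.000492), and DDIT3 (−0.24, SE 0.075, adjusted p = 0.0410), and the higher ones ATF6 (0.12, adjusted p = 0.0397) and CREB3 (0.12, adjusted p = 0.0488). From other lists, lower values were those of the BiP co-chaperone DNAJC3 (−0.17, SE 0.043, adjusted p = 0.0138) and of MAN1B1 (−0.24), while EDEM1 (0.24), UBE2J1 (0.18), SDF4 (0.25) and ITPR2 (0.26) were higher. For the difference between times in the effect of 25 µg/ml, 3 of the 109 were called higher, or 2.75% against 3.3% of all genes. They were P4HB (0.27, SE 0.059, adjusted p = 0.0390), EDEM2 (0.35, SE 0.079, adjusted p = 0.0412) and ATP2A3 (0.38, SE 0.082, adjusted p = 0.0376). The counts of that comparison and of 24 against 6 h moved when single libraries were left out, as did those over all genes.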

How the data were processed

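RNA of Jurkat cells was sequenced as 17 poly(A) libraries. The authors deposited a table of FPKM for 25593 entries with 25548 symbols. Reads were aligned with TopHat2 2.1.0, per the submitters' processing notes. Which program made the FPKM, on which build and gene models, is not given in the sources used here. FPKM are not counts, so no count model was used.

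Groups came from the labels (dose and time). Genes with a mean of at least 1 FPKM (12015) entered limma 3.58.1 in R 4.3.3 on log2(FPKM + 1), with 1 mean for each of 9 groups, a variance trend and 8 residual degrees of freedom. Tests were two-sided, with Benjamini-Hochberg adjustment over all tested genes and a call at an adjusted p under 0.05. The spread of the single untreated 12 h library was taken from the other groups. Relative depth came from 6620 low genes. GC content and length (GENCODE release 29) matched 11157 of the tested genes (92.9%).

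Promoters came from RefSeq (GRCh38.p14); protein sequences were not used here. The members and the lists were chosen with earlier results of these data known. All 10 members are named. The rule for named genes took all 10 members; from each of the 7 lists up to 4 genes called between 25 and 0 µg/ml over all times, or else the 2 with the smallest p; XBP1, ATF4, DDIT3, HERPUD1, SDF2L1, P4HB, DNAJC3 and SEL1L always; and the 5 genes most like the members. One gene that this rule takes is not reported here. List genes named for 24 h, for time or for the difference between times were chosen after their values were seen. The fits were tested on simulated data. Alternatives covered the pseudocount, filter, scaling, variance trend, lane, times, replicate block, GC content and length, and each library left out. Where an alternative lacked a group, dose comparisons over all times kept only the times at which both groups were present. Leaving out both libraries that stood apart, and the times compared in untreated or in 25 µg/ml libraries alone, were alternatives chosen after seeing the data. Those comparisons of times kept the spread of all 17 libraries.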

Additional observations from a re-analysis of the deposited data

Results flagged for a closer look

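PDIA4 drew attention because its response to 25 µg/ml ILT3.Fc differed between 2 times by a direct test. The difference between 25 and 0 µg/ml was −0.15 at 6 h and 0.17 at 24 h on the log2(FPKM + 1) scale, and the 24 h effect minus the 6 h effect was 0.33 (SE 0.048, limma, adjusted p = 0.0130). Both libraries with 25 µg/ml were below both untreated libraries at 6 h, and both were above them at 24 h. It was called under 23 of 30 alternatives, with values from 0.23 to 0.36.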

How the results depend on the processing

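Counts of called members differed between settings, as did the share of all genes called, so a count alone is no result about the members. With the GC content and length correction that share was 7.55% between 12 and 6 h and 0.941% at 6 h. With quantile normalization it was 3.62% between 12 and 6 h. Small moves are not all listed. Quantile normalization gave 3 members at 24 h (15.9% of all genes) and 6 between 24 and 6 h (27.3%). Further counts were as follows. For 25 against 0 µg/ml over all times, with 1 called, there were 2 with a mean of at least 5 FPKM or quantile normalization, 3 with median centring, 4 without both libraries that stood apart, 5 with the GC content and length correction, 4 with that correction and the replicate block, and 0 within lane 4, within lane 5 or without the 24 h libraries. Leaving out each library gave 1 to 4, with 4 without either 12.5 µg/ml 6 h library and 3 without untreated 12 h. For 12.5 against 0 µg/ml, with 0 called, leaving out each library gave 0 to 1. For 25 against 12.5 µg/ml, with 0, the correction gave 1 with or without the block, and leaving out each library 0 to 3. At 6 h, with 0, there was 1 with a pseudocount of 0.1, with a mean of at least 5 FPKM, with lane as a covariate, and with the correction with or without the block, 3 without both libraries, and 0 to 3 leaving out each library. At 12 h the count was 0 in every alternative run. At 24 h, with 2, there was 1 within lane 4 and 4 with the correction, and leaving out each library gave 0 to 5. Between 24 and 6 h, with 5, there was 1 in untreated libraries alone and 3 at 25 µg/ml alone, and leaving out each library gave 5 to 8. Between 12 and 6 h, with 0, there was 1 with a mean of at least 5 FPKM, quantile normalization, the correction with or without the block, or without both libraries, and leaving out each library gave 0 to 4. For the 24 h effect minus the 6 h effect, with 1, there were 0 within lane 4 or without the 12 h libraries, and leaving out each library gave 0 to 1.

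The PDIA4 difference between 24 and 6 h had the other sign in untreated libraries alone, at −0.056, and was not called there (limma, adjusted p = 0.419). Of 81 member values not called, 33 changed sign under at least 1 alternative, and of 9 called ones 1 did. In all of these the cause was not tested.

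Among all genes, 1138 were called between 25 and 0 µg/ml over all times, but 42 within lane 4, 8 within lane 5, 46 without the 24 h libraries, 488 without the 12 h libraries, 1943 with the correction, 1796 with the correction and the block and 1829 without both libraries; at 24 h 1978 were, but 702 within lane 4, 1309 with no filter and 1268 without the 12 h libraries; between 24 and 6 h 3027 were, but 1623 within lane 4 and 280 in untreated libraries alone. Leaving out each library gave 613 to 2034 for the first, 483 (without untreated 24 h replicate 2; 602 without 25 µg/ml 24 h replicate 2) to 3071 (without 12.5 µg/ml 6 h replicate 1) at 24 h, and 2187 to 4258 between 24 and 6 h. For the others it gave 4 to 895 (12.5 against 0 µg/ml, with 34), 9 to 1474 (25 against 12.5 µg/ml, with 34), 3 to 93 (6 h, with 27), 4 to 39 (12 h, with 6), 97 to 2411 (12 against 6 h, with 364) and 5 to 1162 (24 h effect minus 6 h effect, with 396).

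Replicate numbers were not used to pair the libraries. Deviations of same-numbered libraries correlated at −0.18 to 0.13, with 2 of 28 over 0.1. These correlations cannot exclude pairing, because trends with GC content and length also enter the deviations. With the replicate block HSP90B1 differed by −0.19 (adjusted p = 0.00596) between 25 and 0 µg/ml over all times. Depth in reads is unknown, so no counting error can be given.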
